A study of Mus musculus with 5 samples.

Results

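Cell cycle control and mitosis genes were examined for binding sites of ZFP24 (also named ZFP191), a zinc finger transcription factor, in mouse oligodendrocyte progenitor cells (OPC) and in oligodendrocytes (OLG) grown from them. The set was a list of 55 named genes, all found in the GENCODE M21 basic annotation, out of 21668 protein-coding genes. By textbook role, 25 act in the control of G1, 10 in DNA replication and 20 in mitosis. Chromatin immunoprecipitation sequencing (ChIP-seq) recovers the DNA that lies under an antibody target, and a peak is a stretch where that DNA piles up. Of the series, 1 OPC and 1 OLG peak list were used, and a gene was counted when a peak centre lay within 10 kb of the start of one of its protein-coding transcripts.

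The OPC were immunopanned from brains of wild-type mice at postnatal day 7, with the strain given as C57BL/6. The OLG were such cells after 5 days without PDGF, a growth factor that keeps progenitors dividing, and with triiodothyronine at 40 ng/ml. Zfp191-null OPC, Zfp191-null OLG and a pooled input of both genotypes and both cell types were the controls, with 1 library in each of the 5 groups. How many animals went into a library is not given in the labels. Each list is named in the records of both the wild-type and the null library of its cell type, and the signal of the null and input libraries at these genes was not analysed here. The lists give positions only, so the depth of the libraries and the height of each peak are unknown. The OPC list held 4643 peaks of 209 bp and the OLG list 1752 peaks of 221 bp. Expression was not measured, so the labelled cell types could not be checked against marker genes. No comparison has a replicate, and none is a test.

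A cell enters the division cycle when D-type cyclins with CDK4 or CDK6, and then E-type cyclins with CDK2, phosphorylate the pocket proteins of the retinoblastoma family and free E2F transcription factors. CDK inhibitors oppose these kinases. Replication origins are then licensed by the loading of the MCM helicase, and CDK1 with the mitotic cyclins later drives mitosis. Progenitors of the oligodendrocyte lineage divide in response to mitogens and leave the cycle as they mature.

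In OPC, 14 of the 55 genes, or 25.5%, had a peak within 10 kb, where the share of all protein-coding genes was 12.8%. In OLG the count was 9, or 16.4%, where all protein-coding genes gave 6.48%. The members were chosen with earlier results of these data known, which limits what the comparison with all genes can show. The OPC genes were Ccnd3, Ccne1, Cdkn1b, Cdkn2c, Rbl1, Rbl2, Myc, Cdc6, Orc1, Pcna, Cdk1, Cdc25b, Cdc25c and Aurkb. The OLG genes were Cdc25a, Cdkn1b, Cdkn2d, E2f5, Pcna, Wee1, Cdc25c, Cdc20 and Top2a. Together 20 of the 55 were near a peak of at least 1 list, or 36.4%, beside 17.1% of all protein-coding genes, and 35 had none. The median distance from a member's start to its nearest peak was 53.4 kb in OPC, from 21 bp at Cdc6 to 1485226 bp at Mcm3, and over all protein-coding genes it was 129 kb. In OLG the median was 181 kb, from 109 bp at Top2a to 9039140 bp at Cdk6, beside 335 kb over all protein-coding genes.

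**Figure D1:**
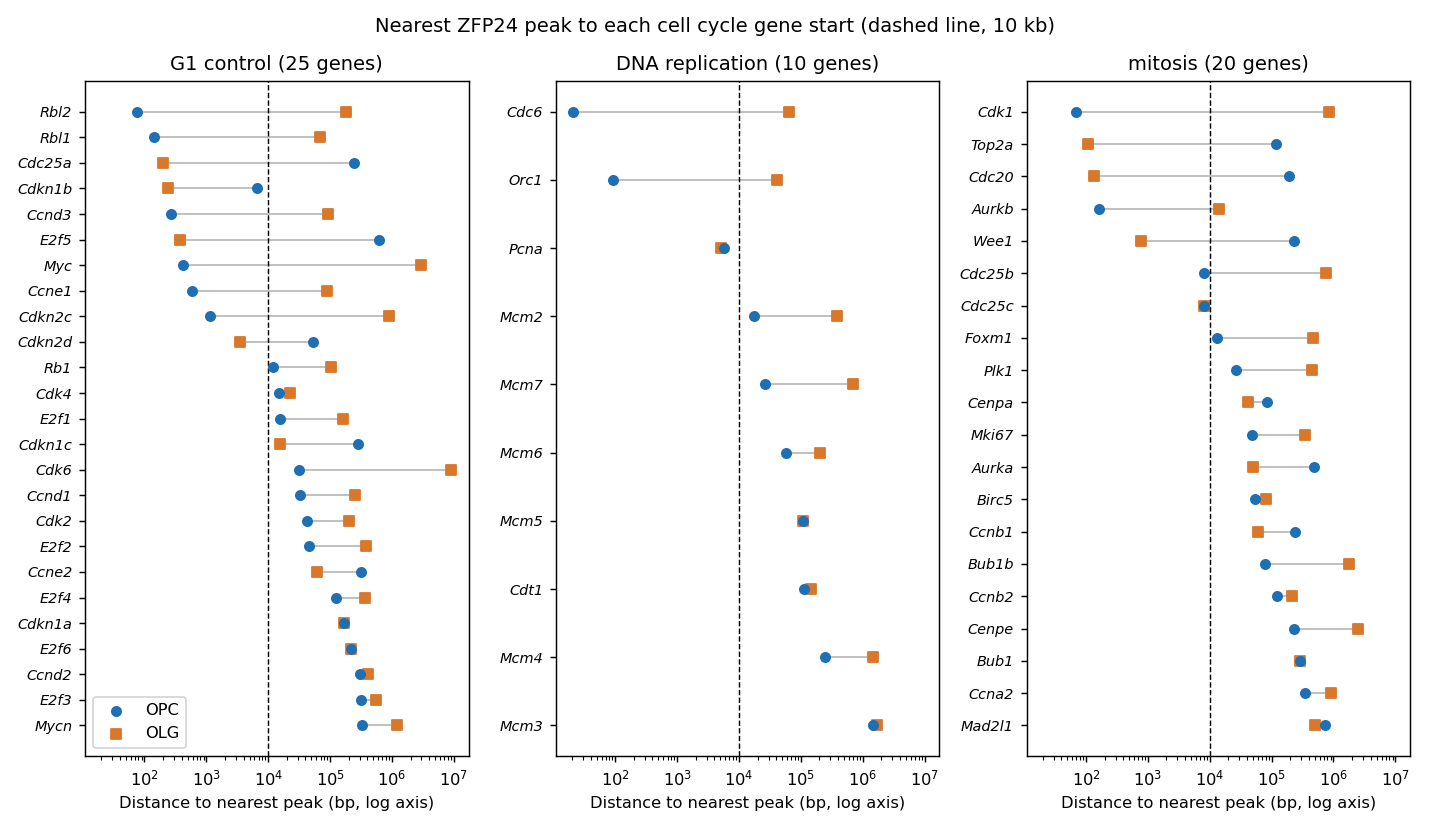
Distance in bp (log axis) from each of the 55 genes to its nearest OPC peak (circles) and OLG peak (squares), in panels by class, with a dashed line at 10 kb. Among the 20 genes left of the line in either list, 17 have only 1 of the 2 symbols there, and at Pcna and Cdc25c the symbols nearly coincide.

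Most of the counted peaks lay close to a start. Within 1 kb of a start lay the nearest peak of 9 members in OPC (16.4%, beside 8.21% of all protein-coding genes) and of 6 in OLG (10.9%, beside 4.07%). Those 9 made up 64.3% of the members with an OPC peak, and over all genes with an OPC peak the same share was 64.4%. For OLG the shares were 66.7% and 62.8%. Members and all genes with a peak thus had like shares of peaks close to a start. At 50 kb the members reached 26 in OPC (47.3%, beside 29.2% of all protein-coding genes) and 14 in OLG (25.5%, beside 15.1%).

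**Figure D2:**
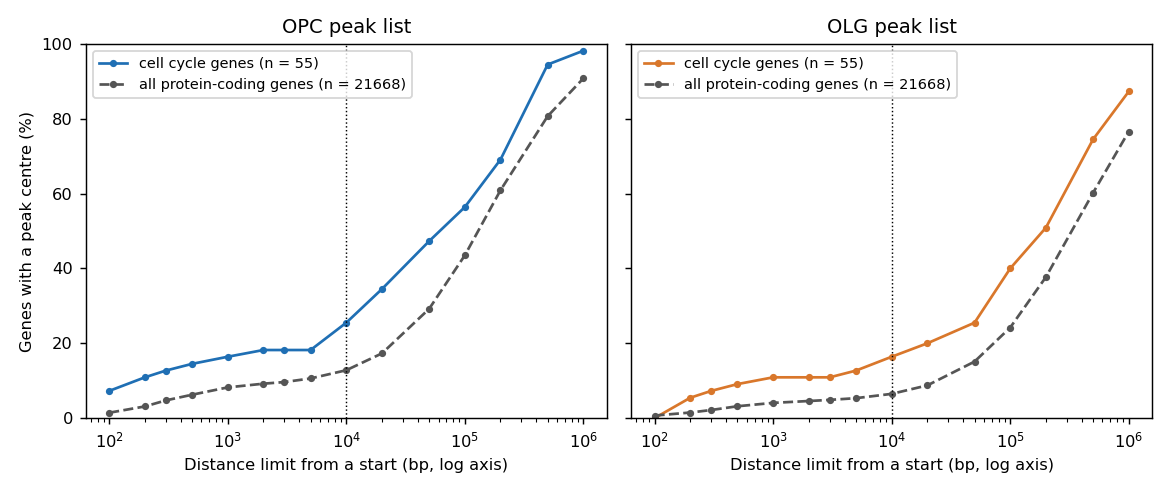
Percent of genes with a peak centre within each distance of a start (log axis), for the 55 cell cycle genes (solid) and all 21668 protein-coding genes (dashed), in OPC (left) and OLG (right). The solid line lies above the dashed one at 1 kb, 10 kb and 50 kb in both panels. At 100 bp in OLG it is at 0%, below the dashed line at 0.678%.

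Over all protein-coding genes, the share with a peak rose with the GC content around the start. The 500 bp around the start had a median GC content of 62.4% in the members and 57.7% over all protein-coding genes, and 44 of the 55 members lay in the upper 2 quartiles. Over all genes the share with an OPC peak was 3.42%, 12.2%, 16.5% and 18.8% from the lowest to the highest GC quartile. For OLG it was 1.44%, 4.87%, 8.51% and 11.1%. Weighted by the number of members in each quartile, the share of all genes was 16.5% in OPC and 8.80% in OLG, so the members' 25.5% and 16.4% stood nearer to it than to the unweighted shares. The part of GC content in the members' counts was not tested. Members with an OPC peak had a median GC content of 60.5%, those with an OLG peak 62.4% and those with none 63.0%. By quartile from the lowest to the highest, 1 of 1, 2 of 10, 7 of 21 and 4 of 23 members had an OPC peak, and 1 of 1, 1 of 10, 3 of 21 and 4 of 23 an OLG peak.

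**Figure D3:**
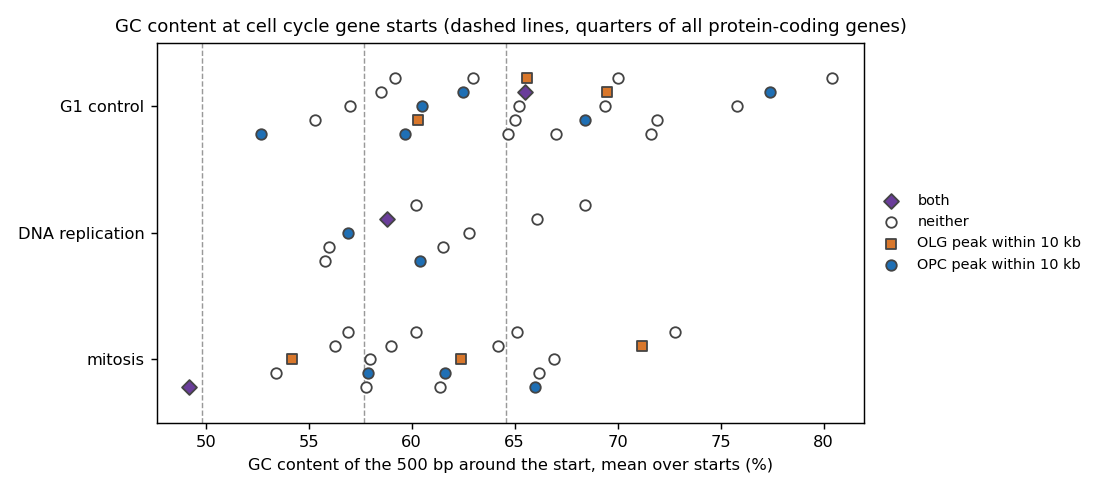
Mean GC content of the 500 bp around the starts of each cell cycle gene (x axis, %), by class, with symbols for a peak within 10 kb in OPC, OLG, both or neither; vertical offsets only separate the points. Dashed lines mark the quartiles of all protein-coding genes, and genes with and without a peak mix along the axis, with medians of 60.5% (OPC peak), 62.4% (OLG peak) and 63.0% (none).

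In OPC the share with a peak lay between 20.0% and 30.0% in every class, with 7 of 25 G1 control genes (28.0%), 3 of 10 replication genes (30.0%) and 4 of 20 mitosis genes (20.0%). In OLG the counts were 4 of 25 (16.0%), 1 of 10 and 4 of 20 (20.0%). Beside these, 12.8% (OPC) and 6.48% (OLG) of all protein-coding genes had a peak, and the 1 of 10 is near that share. The median GC content around the start was 65.2% in the G1 control, 60.3% in the replication and 60.8% in the mitosis genes. One gene more or fewer moves the replication share by 10 percentage points, and the differences between classes were not tested. When a peak was given only to the nearest start, the classes had 7, 2 and 2 genes in OPC and 3, 0 and 3 in OLG. Under that rule 10.3% (OPC) and 5.22% (OLG) of all protein-coding genes had a peak. The 2 of 20 mitosis genes in OPC and the 0 of 10 replication genes in OLG are near those shares.

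**Figure D4:**
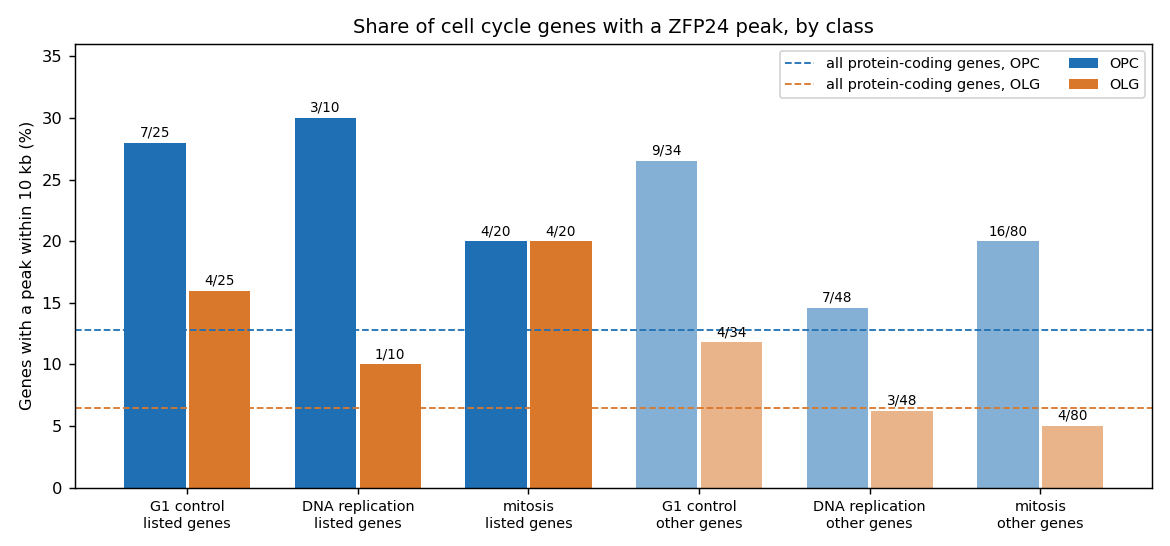
Percent of genes with a peak within 10 kb, for the 55 listed genes (dark bars) and 162 other cell cycle genes (pale bars) in the same 3 classes; the numbers give genes with a peak over genes in the class, and dashed lines give all protein-coding genes (12.8% in OPC, 6.48% in OLG). In OPC every bar is above its dashed line, and in OLG the bars of the other replication and mitosis genes are below it. The bars of the other replication genes (14.6% in OPC, 6.25% in OLG) and of the other mitosis genes in OLG (5.00%) are near their lines.

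Among the genes of G1 control, the pocket protein genes Rbl1 and Rbl2 had OPC peaks at their starts. They encode relatives of the retinoblastoma protein that hold E2F factors in check. The Rbl2 peak was centred 77 bp downstream of a start, in a coding exon. The Rbl1 peak was centred 144 bp upstream of its start, in intergenic sequence. Rb1 itself, the retinoblastoma gene, had its nearest OPC peak 12059 bp upstream, outside the 10 kb limit. In OLG the nearest peaks of Rb1, Rbl1 and Rbl2 were 104130, 69703 and 180542 bp away. Of the 3 pocket protein genes, 2 were counted in OPC and 0 in OLG, where 12.8% and 6.48% of all protein-coding genes were. The 0 in OLG is near the background. The parts of the Rbl2 and Rbl1 peaks outside annotated untranslated regions are printed 5′ to 3′ on the strand of the gene, as the sites nearest to a start in this class, from the GRCm38 genome. Here and in the sequences further on, capitals mark words from the motif search described with the promoters, and these 2 sequences hold none.
Rbl2, OPC, chr8:91070176-91070339: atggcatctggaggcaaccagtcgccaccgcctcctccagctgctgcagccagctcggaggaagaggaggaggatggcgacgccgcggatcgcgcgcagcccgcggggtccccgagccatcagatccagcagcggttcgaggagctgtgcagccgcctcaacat
Rbl1, OPC, chr2:157204552-157204760: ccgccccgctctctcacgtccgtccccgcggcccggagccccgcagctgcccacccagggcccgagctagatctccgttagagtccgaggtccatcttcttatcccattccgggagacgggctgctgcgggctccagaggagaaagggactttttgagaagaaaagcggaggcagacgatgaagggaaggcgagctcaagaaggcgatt

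Of the 6 genes of E2F factors, which the pocket proteins bind, 1 had a peak (16.7%, beside 17.1% of all protein-coding genes in either list). E2f5 had an OLG peak 381 bp downstream of a start, in an intron (chr3:14578942-14579162), and its nearest OPC peak was 615822 bp away. E2f1, E2f2, E2f3, E2f4 and E2f6 had no peak inside the limit in OPC or OLG. Of these, E2f1 came nearest, with an OPC peak 15370 bp upstream. The Myc gene, which encodes a growth-promoting transcription factor, had an OPC peak in a coding exon (chr15:61987733-61987941), 415 bp downstream of the nearest of its 5 starts and 2.45 kb downstream of the 5′-most. Its relative Mycn had its nearest peaks 326393 bp (OPC) and 1206254 bp (OLG) away.

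Of the 5 G1 cyclin genes, 2 were counted in OPC and none in OLG, where 12.8% and 6.48% of all protein-coding genes were, so that the 0 in OLG is near the background. Ccnd3, a D-type cyclin gene with 6 annotated starts, had an OPC peak in a coding exon (chr17:47593631-47593839), 265 bp downstream of an inner start and 88.7 kb downstream of the 5′-most. With only the 5′-most start of each gene, Ccnd3 was the 1 member lost from the OPC count, which became 13. A further OPC peak lay in an intron of Ccnd3, 9640 bp upstream of a start. Ccne1, an E-type cyclin gene, had an OPC peak 580 bp upstream of its single start. Its OLG peaks came no nearer than 88279 bp. Ccnd1, Ccnd2 and Ccne2 had no peak within 10 kb, and neither did the G1 kinase genes Cdk2, Cdk4 and Cdk6. The nearest peak to Cdk4 was 15064 bp downstream in OPC, only 240 bp from the start of Agap2.

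CDK inhibitor genes, whose products stop the kinases above, were counted in 2 of 5 cases in each list. All protein-coding genes gave 12.8% in OPC and 6.48% in OLG. Only the OLG peak of Cdkn1b lay within 1 kb of the start of such a gene. Cdkn1b encodes the Kip1 inhibitor, which takes part in the exit of oligodendrocyte progenitors from the cycle. It was the only member that was the nearest gene to a peak in both lists, and the sites were different. In OLG the peak was 242 bp upstream of the start, and in OPC it was 6493 bp downstream of a start, beyond the end of the gene (chr6:134926902-134927110). The peaks were centred 6847 bp apart. Cdkn2c had 2 OPC peaks, 1157 bp upstream and 7560 bp downstream of a start, and no OLG peak nearer than 885179 bp. Cdkn2d had an OLG peak 3555 bp downstream, in an intron of Kri1 and 355 bp from the start of that gene. Cdkn1a and Cdkn1c had none within 10 kb, and Cdkn1c was nearest with an OLG peak 15589 bp downstream. Cdc25a, the gene of a phosphatase that activates CDK2, had an OLG peak 199 bp downstream of a start, in the 5′ untranslated region (chr9:109875668-109875888), and no OPC peak nearer than 240255 bp. The OLG site upstream of Cdkn1b is printed whole, with its CCAAT word in capitals.
Cdkn1b, OLG, chr6:134920049-134920269: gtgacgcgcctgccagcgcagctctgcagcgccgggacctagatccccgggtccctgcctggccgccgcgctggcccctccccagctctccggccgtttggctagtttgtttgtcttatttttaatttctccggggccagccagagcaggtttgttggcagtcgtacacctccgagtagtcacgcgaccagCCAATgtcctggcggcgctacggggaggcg

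Tandem TCAT repeats, to which ZFP24 is known to bind, were counted in the members' peaks. The Ccne1 peak was the only 1 of the 14 members' nearest OPC peaks within 10 kb to hold at least 3 units of TCAT (any phase, either strand), in a tract of 16 bases, and none of the 9 nearest OLG peaks held one. Of all OPC peaks 12.4% held the repeat, and of those within 1 kb of a start 2.61%. In OLG the shares were 6.05% and 2.86%. The members' 1 of 14 (7.14%) and 0 of 9 are too few to set apart from these shares. Just outside the limit, the OPC peaks 12059 bp upstream of Rb1 and 15370 bp upstream of E2f1 held tracts of 34 and 18 bases, the former reaching the edge of the peak. Those peaks were singled out after their values were seen. All 3 were intergenic, and they are printed whole on the strand of the gene (all minus), with the repeat in capitals.
Ccne1, OPC, chr7:38108010-38108218: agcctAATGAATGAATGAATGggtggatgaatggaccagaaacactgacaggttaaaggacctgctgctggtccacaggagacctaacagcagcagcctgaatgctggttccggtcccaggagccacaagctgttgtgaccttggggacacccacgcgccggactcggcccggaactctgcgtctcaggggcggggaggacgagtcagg
Rb1, OPC, chr14:73337777-73337985: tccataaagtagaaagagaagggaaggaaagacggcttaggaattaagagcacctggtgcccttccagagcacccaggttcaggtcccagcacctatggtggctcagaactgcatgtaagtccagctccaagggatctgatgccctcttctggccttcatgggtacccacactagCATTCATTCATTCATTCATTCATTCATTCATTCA
E2f1, OPC, chr2:154585158-154585366: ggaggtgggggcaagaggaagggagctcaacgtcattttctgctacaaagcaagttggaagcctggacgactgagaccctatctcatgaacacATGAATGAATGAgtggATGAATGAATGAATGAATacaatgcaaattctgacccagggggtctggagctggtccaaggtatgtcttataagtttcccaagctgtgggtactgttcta

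Among the 10 genes of DNA replication, Cdc6, Orc1 and Pcna had an OPC peak within 10 kb, and Pcna also had one in OLG. Cdc6 and Orc1 encode proteins that load the helicase onto origins, and each had an OPC peak at its start. The Cdc6 peak was 21 bp upstream of a start, the smallest distance of any member, and 329 bp downstream of the 5′-most start. The Orc1 peak was 92 bp downstream of its start, in the 5′ untranslated region. It also lay within 1 kb upstream of the start of Prpf38a, which is transcribed from the opposite strand. In OLG the nearest peaks were 65118 bp from Cdc6 and 40676 bp from Orc1. Cdt1, a further licensing factor gene, had its nearest peaks 110730 bp (OPC) and 145949 bp (OLG) away. None of Mcm2, Mcm3, Mcm4, Mcm5, Mcm6 and Mcm7, the 6 genes of the helicase ring, had a peak inside the limit in OPC or OLG. With 17.1% of all protein-coding genes near a peak of either list, a count of 0 among 6 genes is close to the background. Their nearest OPC peaks were between 17649 bp (Mcm2) and 1485226 bp (Mcm3) away and their nearest OLG peaks between 108797 bp (Mcm5) and 1713576 bp (Mcm3). For Cdc6 and Orc1 the parts of the peaks outside untranslated regions are printed. The capitals in Orc1 mark CACGTG.
Cdc6, OPC, chr11:98908026-98908150: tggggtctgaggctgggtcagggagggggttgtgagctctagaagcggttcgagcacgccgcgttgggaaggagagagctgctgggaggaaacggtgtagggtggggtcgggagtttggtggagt
Orc1, OPC, chr4:108579576-108579650: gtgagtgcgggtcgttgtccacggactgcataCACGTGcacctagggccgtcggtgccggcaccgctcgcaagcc

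Pcna, the gene of the sliding clamp of the DNA polymerases, was counted in both lists, but its peaks lay at the start of another gene. The OPC peak (chr2:132247547-132247755) was 5663 bp and the OLG peak (chr2:132248085-132248305) 5119 bp downstream of the Pcna start. The OPC peak was centred 3 bp from the start of the neighbouring gene Tmem230, and the OLG peak 388 bp upstream of it. The peaks were 544 bp apart and did not overlap.

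Among the mitosis genes, OPC peaks lay at the starts of Cdk1 and Aurkb and OLG peaks at those of Top2a, Cdc20 and Wee1. Counted within 1 kb of a start, that was 2 of 20 mitosis genes in OPC and 3 of 20 in OLG. Of all protein-coding genes, 8.21% in OPC and 4.07% in OLG had such a peak, so the OPC count is near the background. The OLG difference rests on 3 genes and was not tested. Cdk1 encodes the kinase that drives mitosis, and its OPC peak was 70 bp downstream of a start, in an intron. Its nearest OLG peak was 830752 bp away. Wee1 encodes a kinase that inhibits CDK1, and had an OLG peak 767 bp downstream of its start, in a coding exon (chr7:110122703-110122923). The nearest OPC peak to Wee1 was 230382 bp away. Aurkb encodes a kinase of the chromosomal passenger complex. Its OPC peak was 165 bp downstream of a start, in the 5′ untranslated region (chr11:69045713-69045921), and its nearest OLG peak, 14269 bp downstream, was in a coding exon of Borcs6, 204 bp from the start of that gene.

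Top2a, the gene of the topoisomerase that untangles chromosomes, had an OLG peak 109 bp downstream of its start, the nearest of any member in that list. Its nearest OPC peak was 116059 bp away. Cdc20, whose product activates the anaphase-promoting complex, had 2 OLG peaks, 137 bp downstream (chr4:118437105-118437325) and 1392 bp upstream (chr4:118438634-118438854) of its start, and no OPC peak nearer than 189701 bp. The parts of the Cdk1 and Top2a peaks outside untranslated regions are printed as the sites nearest to a start of a mitosis gene in each list. The CHR word of the Cdk1 peak and the E2F word of the Top2a peak lie in the parts not printed.
Cdk1, OPC, chr10:69352729-69352835: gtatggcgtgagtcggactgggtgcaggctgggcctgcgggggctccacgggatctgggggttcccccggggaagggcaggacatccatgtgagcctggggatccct
Top2a, OLG, chr11:99023970-99024066: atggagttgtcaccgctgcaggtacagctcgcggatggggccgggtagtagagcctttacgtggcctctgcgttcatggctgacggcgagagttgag

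Cdc25b and Cdc25c, the genes of phosphatases that activate CDK1, were counted through peaks at other genes. The OPC peak 7937 bp upstream of Cdc25b lay in a coding exon of Cenpb, 1055 bp from the start of that gene. For Cdc25c the OPC and OLG peaks, 8027 and 8200 bp upstream, were 4 and 177 bp downstream of the start of Fam53c, and overlapped by 42 bp. This was the only overlap between the lists within 10 kb of a member. The 8200 bp of Cdc25c was also the farthest nearest peak inside the limit, and the 12059 bp of Rb1 the closest outside it. The remaining 13 mitosis genes were Ccna2, Ccnb1 and Ccnb2 (mitotic cyclins), Plk1 and Aurka (mitotic kinases), Bub1, Bub1b and Mad2l1 (spindle checkpoint), Mki67, Birc5, Cenpa and Cenpe (chromosome and kinetochore proteins) and Foxm1 (a transcription factor of mitotic genes). Their nearest OPC peaks were between 13157 bp (Foxm1) and 730917 bp (Mad2l1) away, and their nearest OLG peaks between 42022 bp (Cenpa) and 2528547 bp (Cenpe).

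**Figure D5:**
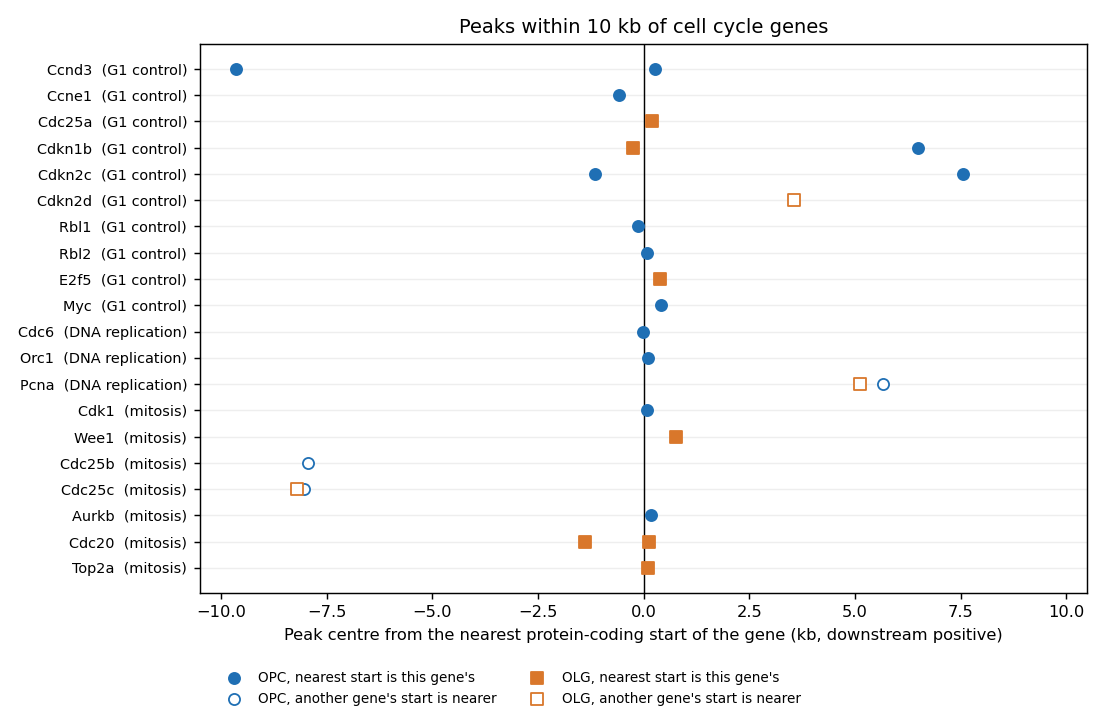
Position of every peak within 10 kb of the 20 cell cycle genes that had one (x axis, kb from the nearest start of the gene, downstream positive), for OPC (circles) and OLG (squares). Most filled symbols lie within 1 kb of 0; the open ones, whose nearest start is that of another gene, are the peaks counted for Cdkn2d, Pcna, Cdc25b and Cdc25c.

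Counting each peak for the nearest start alone left 11 members in OPC (20.0%, beside 10.3% of all protein-coding genes) and 6 in OLG (10.9%, beside 5.22%). In both lists under the 10 kb rule were 3 members, Cdkn1b, Pcna and Cdc25c, or 5.45% beside 2.11% of all protein-coding genes. They made up 21.4% of the members with an OPC peak and 33.3% of those with an OLG peak. Over all genes these shares were 16.6% and 32.6%, close to those of the members. Within 1 kb of a start, no member had a peak in both lists, and neither did most genes, with 1.09% of all protein-coding genes counted in both. Whether a member with a peak in a single list differs between the cell types was not tested, since each cell type has 1 list. The nearest OPC and OLG peaks of a gene overlapped each other at 4 members (7.27%, beside 4.67% of all protein-coding genes). Besides Cdc25c these were Cdkn1a, Mcm5 and Bub1, outside the limit at 165875, 108693 and 291125 bp, measured to the OPC peak. The starts nearest to those sites were of Ppil1, Rasd2 and Bcl2l11.

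By position, the nearest OPC peaks of the 14 members lay in 4 cases each in a coding exon, a 5′ untranslated region or intergenic sequence and in 2 cases in an intron. Of the 9 within 1 kb of a start, 6 (66.7%) were downstream of it, beside 65.1% over all genes with a peak that near. In OLG 5 of 6 (83.3%) were downstream, beside 71.9%. Members did not stand apart in the side on which the peaks lay, given how few they are. A gene on the opposite strand starting within 1 kb was present at 6 members (10.9%, beside 10.6% of all protein-coding genes). Of these, 2 had an OPC peak within 10 kb, Orc1 and Cdc25b, and 0 an OLG peak. All protein-coding genes gave 12.8% and 6.48%. How many of all the genes with such a neighbour have a peak was not counted. The Cdc25b peak was the 1 in Cenpb, 7937 bp upstream.

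Sequence words known from cell cycle promoters were then searched for on both strands. They were the E2F words TTTCCCGC, TTTCGCGC, TTTGCCGC and TTTGGCGC. The cell cycle genes homology region (CHR) was searched as TTTGAA or as its variant form TTCGAA. The CCAAT box was searched as CCAAT. The E-box, which MYC proteins bind, was searched as CACGTG. None of the words contains another. RefSeq promoters (GRCm38.p6, 250 bases before to 50 after a start) were at hand for 41 of the 55 members. E2F words were in promoters of 7 of 9 replication genes and 6 of 17 G1 control genes, and in those of 1 of 15 mitosis genes, beside 2.60% of all RefSeq genes. CCAAT was in 13 and a CHR word in 11 of the 15 mitosis genes, beside 41.1% and 21.7%. CACGTG was in 4 of the 17 G1 control genes and in no replication or mitosis gene, beside 8.09%, and the TCAT repeat was in none of the 41, beside 0.115%. By peak, E2F words were in 4 of the 11 members with an OPC peak (36.4%), 1 of the 6 with an OLG peak (16.7%) and 9 of the 26 with none (34.6%). CCAAT was in 63.6%, 100% and 65.4% of these members and a CHR word in 27.3%, 33.3% and 46.2%. Cdkn1b and Pcna are in both groups with a peak, so the groups overlap. For Pcna, Cdc25b and Cdkn2d the counted peaks lie nearer to the start of another gene than to these promoters. The groups are small, and their differences were not tested.

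The members' peaks number 14 and 9, so the counts of words in them are small. None of the 14 nearest OPC peaks within 10 kb of a member held an E2F or CCAAT word, where 1.18% and 21.0% of all OPC peaks and 2.67% and 15.1% of those within 1 kb of a start did. A CHR word was in 1 of the 14 (7.14%), the peak at Cdk1, beside 11.3% of all OPC peaks and 7.72% of those within 1 kb of a start. CACGTG was in 3 of the 14 (21.4%), those at Orc1 and Aurkb and the Cenpb site near Cdc25b, beside 4.22% of all OPC peaks. Among the 9 nearest OLG peaks, that of Top2a held an E2F word and that of Cdkn1b a CCAAT word, and none held a CHR word or CACGTG. Of all OLG peaks, 1.48% held an E2F word, 17.5% CCAAT, 8.22% a CHR word and 3.71% CACGTG, so counts of 0 or 1 in 9 are near what all peaks give for CCAAT, CHR and CACGTG. The promoters of 10 members with a peak within 1 kb held 32 matches to these words, of which 2 were inside the peak, the CHR word of Cdk1 and a CCAAT of Cdkn1b. Promoter window and peak shared from 0 to 209 bases in these genes, so that many of the words were out of the reach of the peak. A match is a string of letters and not a shown site.

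Other cell cycle genes, 162 in the same 3 classes, had an OPC peak within 10 kb in 32 cases (19.8%, beside 12.8%) and an OLG peak in 11 (6.79%, beside 6.48%). In OPC these were 9 of 34 G1 control, 7 of 48 replication and 16 of 80 mitosis genes. In OLG they were 4, 3 and 4. The OLG share of these other genes was thus near that of all genes, where the 55 members had 16.4%. The 9 G1 control genes in OPC include Ccnh and Ccnc, cyclins of transcription-linked kinases, so that class was drawn broadly. The OPC peaks nearest to a start were at Mxi1 (28 bp), a gene of the MYC network, at Ccnh (73 bp) and Ccnc (95 bp), cyclins of transcription-linked kinases, at the anaphase-promoting complex genes Anapc5 (83 bp) and Anapc11 (97 bp), at the kinetochore gene Nuf2 (94 bp), at the replisome gene Gins3 (97 bp) and at Cks2 (102 bp), the gene of a CDK-binding subunit. Of the 10 listed subunit genes of the anaphase-promoting complex, which CDC20 activates, 5 were counted in OPC and 1 in OLG (beside 12.8% and 6.48% of all protein-coding genes), a group singled out after its values were seen. The nearest OLG peaks were at Uhrf1 (48 bp), which encodes a factor that maintains DNA methylation, Anapc5 (80 bp), the kinesin gene Kif18a (144 bp), the centromere gene Cenpk (154 bp, and 21 bp from Ppwd1), the polymerase gene Pole (297 bp, and 177 bp from Pxmp2), Mcm9 (299 bp), Lin9 (350 bp) and Cul1 (392 bp). Uhrf1 also had an OPC peak at 364 bp, which held a TCAT tract of 38 bases. No other of the 32 nearest OPC peaks counted here held the repeat, which 2.61% of all OPC peaks within 1 kb of a start held. In OLG the peak 1284 bp upstream of Fbxw7 held a tract of 13 bases. Both tracts were singled out after their values were seen.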

How the data were processed

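Reads were 75 nt long and single-end, per the labels. BWA, HOMER 4.8.3 and the mm10 build are named in the submitters' processing notes; for peak-calling options, thresholds and the use of controls: not given in the sources used here. The deposited lists hold 4 columns (chromosome, start, end, name) and no score, so a list's length depends on depth and threshold as well as on binding. Positions are printed 1-based on GRCm38, and 0 peaks ran past a chromosome end.

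Peak centres were measured to starts of protein-coding transcripts in the GENCODE M21 basic set on chromosomes 1 to 19 and X. The nearest start of a gene was used. Features were read at the peak centre. GC content was taken over 500 bp and averaged over starts. Python 3.11.15, numpy 2.4.6, scipy 1.17.1 and matplotlib 3.10.9 were used, and the steps were checked on simulated peaks. The members, classes, other genes and words were chosen with earlier results of these data known. Named were all members with a peak within 10 kb, those from 10 to 20 kb, the nearest in each class, and up to 8 other genes per list within 1 kb. No test was run, since each group has 1 library. Alternatives were distance limits, start sets, peak edges, the nearest gene, lower-numbered peaks, the definition of a shared site and GC quartiles. Sequences were printed without untranslated regions and none from chromosome 18.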

Additional observations from a re-analysis of the deposited data

How the results depend on the processing

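Of 113 counts recomputed under other settings, 83 were within 1.5 times the reported value and 30 were not. In OPC, 14 members became 9 at 1 kb, 26 at 50 kb and 9 with the lower-numbered 50% of each chromosome's peaks; the meaning of the number in a peak's name is unknown. The 9 OLG members became 14 at 50 kb. By class in OPC, G1 control went from 7 to 14 at 50 kb, replication from 3 to 5 at 50 kb and 0 with the lower-numbered peaks, and mitosis from 4 to 2 at 1, 2 and 5 kb and by nearest start, and 7 at 50 kb. In OLG, replication went from 1 to 0 at 1, 2 and 5 kb and by nearest start and to 2 at 50 kb, and G1 control from 4 to 2 with the lower-numbered peaks. The 3 members in both lists became 0 at 1, 2 and 5 kb, 6 at 50 kb, 1 by nearest start and 1 with the lower-numbered peaks. Where a shared site was required, 1 remained for an overlap of 1 bp, 0 for an overlap of 50%, and 1 for centres within 500 bp. The other cell cycle genes went from 32 to 57 (OPC) and from 11 to 23 (OLG) at 50 kb, and to 6 in OLG with the lower-numbered peaks. By construction a wider limit takes in more genes, and a narrower limit or a shorter peak list takes in fewer. With the lower-numbered peaks, members had 16.4% (OPC) and 12.7% (OLG), beside 7.71% and 3.74% of all protein-coding genes. Why given genes were lost there was not tested. All 11 counts stayed within 1.5 times at 20 kb, with starts of all transcripts, with peak edges and with the 5′-most start, the last chosen after seeing the data, as were the weighted GC shares. No paired analysis was possible because each group has 1 library. Depth and peak height are unknown, so a gene with no peak in a list may hold a site too weak to be listed.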
